A study of Mus musculus with 32 samples.

Results

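In chromatin-associated RNA of mouse embryonic stem cells, 455 regions carried an m6A immunoprecipitation peak in all 4 control libraries and in none of the 4 knockout libraries. These regions were chosen by merging the peaks of the 8 chromatin RNA lists by chromosome and strand, where they overlapped by at least 1 bp, with spike-in RNA left out. The merge gave 74607 regions, of which 22197 held a peak in all 4 controls, so the 455 lost regions were 2.05% of those that could have been lost. Their peak pattern in chromatin RNA is therefore how they were selected and is described without a test. Position along the gene, orientation relative to the gene and the separate mRNA libraries were not used to select them. Strand itself was, so a region could count as lost while the opposite strand kept its peak. Of the 455, 36 had an opposite-strand peak in all 4 knockouts, and with strand ignored 405 regions met the definition.

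The cells were mouse embryonic stem cells of C57BL/6 strain labelled as knockout (CKO) of Mettl3 or of Mettl14, each with its own control cells. The culture medium of every group contained 1000 U/ml LIF, a GSK3 inhibitor (CHIR99021, 3 µM) and a MEK inhibitor (PD0325901, 1 µM), which keep such cells pluripotent. Each of 8 groups, set by RNA type, line and genotype, had 2 immunoprecipitation libraries with 1 peak list each, and the inputs of the 32 samples were not used here. The labels do not say how the genes were deleted, how completely, how many clones were used, or whether replicates were separate cultures, so the spread between replicates may be technical.

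N6-methyladenosine (m6A) is placed on adenosines of nascent RNA by a complex in which METTL3 is the catalytic subunit and METTL14 the partner that holds the RNA substrate. In messenger RNA the mark is known to gather around stop codons and in long exons, most often within GGAC-like sequences. Chromatin-associated RNA is the fraction still held on chromatin, such as unfinished transcripts and regulatory RNA, and m6A there has been linked to RNA decay and to the state of nearby chromatin. In MeRIP-seq an antibody pulls down fragments that carry the mark, and a peak is a place where the pulled-down reads exceed the background.

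The peak lists of chromatin RNA held 37955 to 45241 peaks, and those of mRNA 16537 to 23380, with the shortest lists in the Mettl14 mRNA controls. Read depth is unknown for all lists, so a missing peak can mean less methylation, less RNA or fewer reads, and these cannot be told apart. All 10 embryonic stem cell markers checked carried a peak in each of the 8 chromatin RNA lists. Of 9 feeder fibroblast markers, 3 to 4 carried a peak in control lists, 6 to 7 in the Mettl3 knockouts and 5 in both Mettl14 knockouts. The spike-in RNA with peaks in all 8 lists reached folds of 8.57 and 8.26 in the Mettl3 controls, 9.52 and 9.83 in the Mettl3 knockouts, 5.54 and 5.70 in the Mettl14 controls and 11.2 and 16.5 in the Mettl14 knockouts. The highest fold of this RNA thus moved with genotype, and so did the fibroblast markers. The part of either in the losses was not tested. In mRNA it reached 4.48 and 5.73 in Mettl3 controls, 8.12 and 6.88 in Mettl3 knockouts, 5.67 and 5.25 in Mettl14 controls and 7.33 and 9.66 in Mettl14 knockouts. A second spike-in RNA had chromatin RNA peaks in the Mettl3 line only (1.38 and 1.55 in controls, 2.87 and 2.98 in knockouts). Its mRNA peaks were in controls only (1.25 and 1.47 in Mettl3, 6.04 and 5.71 in Mettl14). The lists hold no expression level. In chromatin RNA, peaks inside Mettl3 itself numbered 3 and 2 in its own controls and 1 in each of its knockouts, but also 4 in each Mettl14 control and 1 and 2 in the Mettl14 knockouts. Peaks inside Mettl14 numbered 1 in each of its own controls and 0 in its knockouts, whereas Mettl3 control lists had 0 there and Mettl3 knockout lists 2 and 1. Peaks in these genes therefore do not check the labels.

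The available sequence tables cover only promoters, so sequence can be shown only for lost regions that reach into the 250 bases upstream of a RefSeq start on the strand of the peak (GRCm38.p6, the same build as mm10). There were 6 such regions, at Gpr19, Mdga1, Prmt8, Atraid, Akap9 and Eif2s1. At Gpr19, Mdga1, Prmt8 and Akap9 the overlap lay wholly inside the body of the same gene, since its annotated body begins farther upstream than the start in the promoter table. At Atraid and Eif2s1 the overlap lay outside the body of the gene, and these 2 stretches are given 5′ to 3′ with each GGAC in capitals, to show where a control peak lay before the annotated body. Eif2s1 encodes a subunit of the translation initiation factor that binds the initiator tRNA.
Atraid, chr5:31048418-31048639, plus strand: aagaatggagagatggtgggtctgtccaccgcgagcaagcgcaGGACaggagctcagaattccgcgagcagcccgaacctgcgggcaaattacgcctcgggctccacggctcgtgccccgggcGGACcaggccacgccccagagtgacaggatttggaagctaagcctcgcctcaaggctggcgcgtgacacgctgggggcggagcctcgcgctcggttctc
Eif2s1, chr12:78861822-78862071, plus strand: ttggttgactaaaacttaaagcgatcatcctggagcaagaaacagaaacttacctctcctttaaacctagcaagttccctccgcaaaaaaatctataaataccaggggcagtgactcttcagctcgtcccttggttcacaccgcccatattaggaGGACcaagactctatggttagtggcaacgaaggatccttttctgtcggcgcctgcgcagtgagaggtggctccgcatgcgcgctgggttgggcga

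The Atraid stretch held 2 copies of GGAC and the Eif2s1 stretch 1, and neither held the longer word GGACT. Over the full 250-base windows, GGAC was present on the strand of the peak in all 6 of these genes, with 1 to 3 copies each. It was present in 58.0% of the windows of that length at all 32851 annotated starts on that strand and in 59.5% on the other strand. A match says only that the letters are in the window. The Atraid stretch also lay antisense to the neighbouring gene Slc5a6, and part of the Eif2s1 stretch antisense to Atp6v1d. Both neighbours start in the opposite direction. In all, 18 lost regions overlapped a promoter window (250 bases before to 50 after the start) on either strand and 11 on the strand of the peak. Such overlaps were not counted for the other control regions, so whether these numbers are high or low is not known.

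The 22197 regions found in all controls were unequally spread over the knockout lists. Peaks were missing from both Mettl3 knockouts at 3437 of them (15.5%) and from both Mettl14 knockouts at 941 (4.24%). The 455 regions missing from both were 13.2% of the first set and 48.4% of the second. In contrast, 314 regions were missing from the Mettl14 knockouts alone, which is 1.89% of the regions with a peak in both Mettl3 knockouts, 2472 were missing from the Mettl3 knockouts alone, and 15689 (70.7%) were found in all 8 lists. The mirror set, with a peak in all 4 knockouts and no control, held 353 of 20163 regions (1.75%). The lost count was therefore close in size to the gained count. Leaving out the first Mettl3 control library raised the lost count to 757, and leaving out the second Mettl14 knockout library raised it to 744.

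**Figure D1:**
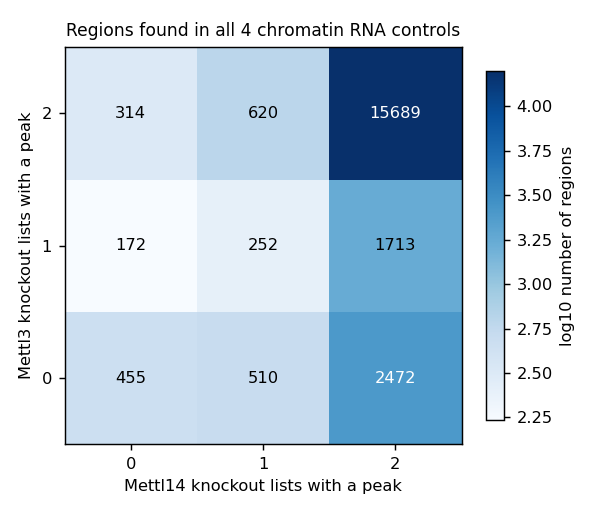
Number of chromatin RNA regions with a peak in all 4 controls, by the number of Mettl14 knockout lists (horizontal) and Mettl3 knockout lists (vertical) that also hold a peak; colour is log10 of the number printed in each cell. The 455 lost regions are the lower left cell, and the 15689 regions found in all 8 lists are the upper right cell.

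The lost regions were narrower and less enriched than the regions found in all 8 lists. Their median width was 345 bp (155 to 1405 bp), against 600 bp for the regions found in all 8 lists. The fold of a region in a list is the authors' fold enrichment of its strongest peak there, and the lowest of the 4 control folds had a median of 3.41 in lost and 5.18 in retained regions. Regions lost in the Mettl14 knockouts only had medians of 403.5 bp and 3.31, and gained regions 252 bp and, over their 4 knockout folds, 3.21. Narrow and weak peaks were thus shared with these classes. Regions lost in the Mettl3 knockouts only were wider and more enriched than the lost regions, with medians of 537.5 bp and 4.17. In the 4 control lists the median fold of the lost regions was 4.43 and 4.30 (Mettl3 controls) and 4.25 and 4.23 (Mettl14 controls). Both control pairs thus showed the lost regions at like folds, and 254 of 455 had a higher mean in the Mettl3 controls. Within a region the highest control fold was a median of 1.57 times the lowest, and in 94 regions it was at least 2 times the lowest. Only 32 lost regions reached a fold of 5 or more in every control, and 10 had a lowest fold under 2.

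The edge of the definition ran through regions of similar strength. The weakest members were in Amd1, which encodes the polyamine enzyme adenosylmethionine decarboxylase (folds of 1.57 and 1.56 in the Mettl3 controls, 2.67 and 2.58 in the Mettl14 controls), in Brca2, the homologous recombination gene (1.61, 2.12, 1.87 and 1.95), and in the cytokinesis motor Kif23 (2.30, 1.68, 5.05 and 5.11). Just outside lay 682 regions with all 4 controls and 1 knockout list, whose lowest control fold had a median of 3.47 and whose single knockout peak had a median fold of 3.77. The strongest of these was in the mitotic kinase gene Wee1, with control folds of 9.29, 8.12, 9.90 and 10.1 and 1 knockout peak of 5.61, in the second Mettl14 knockout. The next were a region shared by Gm42166 and Lrrc8d (lowest control fold 7.05, knockout peak 3.90 in the first Mettl3 knockout) and one in Mmab (6.76, with 5.00 in the first Mettl14 knockout). A further 753 regions had 3 controls and no knockout list, with a median lowest fold of 3.25. Members and near misses therefore overlapped in strength, and 1 peak call separated them.

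Placed by their summits, 398 of the 455 lost regions lay in the body of 1 gene alone, 33 in several overlapping genes and 24 outside genes. The share outside genes was 5.27%, against 5.51% of retained and 11.3% of gained regions. It was 13.9% and 6.69% of regions lost in the Mettl3 or the Mettl14 knockouts only. The 398 fell in 379 genes, and no gene held more than 2. For 373 of them (93.7%) the gene was protein-coding, for 16 (4.02%) a long noncoding RNA gene and for 9 a pseudogene. The protein-coding share was 96.6% of retained, 93.2% of Mettl3-only, 97.0% of Mettl14-only and 95.5% of gained regions in 1 gene. For long noncoding RNA genes the shares were 1.95%, 3.38%, 1.87% and 3.77%, in that order. All 20 chromosomes represented carried at least 11 lost regions, and 227 lay on the plus and 228 on the minus strand. Of the 379 genes, 209 (55.1%) kept at least 1 other region in all 8 lists, 170 kept none, and in 36 the lost region was the only region of the gene. This share was not computed over all genes with a control region, so it only describes the genes that held a lost region. A knockout peak on the same strand lay within 500 bp of 56 lost regions and within 2 kb of 150, and the median distance to the nearest was 4666 bp. The definition left out any overlap with a knockout peak. No such distances were computed for other classes of region, so these have no background to be read against.

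The strongest lost region was near the end of Itpka, a kinase of inositol trisphosphate signalling (chr2:119750712-119751094, plus strand, at 96.6% of the gene body). Its control folds were 8.30, 9.72, 8.84 and 7.97, and the gene kept no other region in all 8 lists. In mRNA the same place had no peak in any of the 4 Mettl3-line lists but folds of 6.35 and 5.58 in the Mettl14 controls and 4.90 and 5.69 in the Mettl14 knockouts. The chromatin RNA peak was thus missing in Mettl14 knockouts whose mRNA lists held a peak there.

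Further regions among the 20 strongest in 1 gene are taken by what their products do, a grouping for description only. A first group acts on RNA or in translation. Trmt61a, the catalytic subunit of a tRNA methyltransferase, had control folds of 6.79 and 7.23 (Mettl3 line) and 7.33 and 6.66 (Mettl14 line), and 7 of the 8 mRNA lists held a peak there. The region in Elavl2, an RNA-binding protein of the Hu family, had folds of 5.73, 6.09, 6.28 and 6.10. In mRNA it was found in both Mettl3 controls (5.96 and 4.67), in neither Mettl3 knockout, and in all 4 Mettl14-line lists (9.32 and 7.44 in controls, 5.71 and 8.16 in knockouts). Hbs1l, a GTPase that rescues stalled ribosomes, had control folds of 5.71, 5.97, 6.21 and 7.005 at 19.8% of its gene body. Its mRNA peak was present in all 8 lists, at 8.12 and 7.24 in Mettl3 control, 5.79 and 6.63 in Mettl3 knockout, 8.48 and 7.999 in Mettl14 controls and 11.7 and 12.6 in Mettl14 knockouts. At Hbs1l the knockouts of both lines thus lacked the peak in chromatin RNA and had it in mRNA.

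A further group belongs to the cell cycle and to transcription. Cdkn2c, an INK4-family inhibitor of cyclin-dependent kinases, had control folds of 5.53, 6.84, 5.46 and 6.41 in the only chromatin RNA region of the gene. Its mRNA peak was missing from the first Mettl3 knockout alone, with 8.34 and 12.7 in the Mettl14 controls and 9.63 and 13.0 in the Mettl14 knockouts. The proto-oncogene Mycl had folds of 5.33, 5.27, 5.54 and 6.16, and in mRNA 1 Mettl3 knockout and all 4 Mettl14-line lists held a peak. The zinc finger genes Zfp609 (6.63, 6.12, 6.64 and 6.54) and Zscan12 (7.54, 5.37, 6.04 and 6.34) had mRNA peaks in all 8 lists and in the 4 Mettl14-line lists, in that order. In this group the chromatin RNA peak was again absent where the mRNA peak often was not.

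Other strong regions lay in genes with no mRNA peak at that place in any list. Clcn1, a chloride channel of muscle, had control folds of 6.40, 6.73, 7.83 and 8.76, and a second, weaker lost region in the same gene. The adhesion receptor Bcam had 5.76, 6.12, 6.05 and 6.10, and the ciliary transport gene Ift122 had 6.02, 5.97, 6.21 and 6.88. Jakmip1, which binds microtubules, had 6.40, 6.38, 6.04 and 5.74 at 99.0% of its gene body and kept 5 other regions in all 8 lists. Usp19, a deubiquitinating enzyme, had 7.20, 5.56, 6.04 and 6.43. Asb1 (7.92, 6.59, 6.26 and 6.70) and Fam219b (5.41, 5.76, 7.55 and 6.04) differed from these in having mRNA peaks in all 4 Mettl14-line lists, and Fam219b also in 1 control and 1 knockout of the Mettl3 line.

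**Figure D2:**
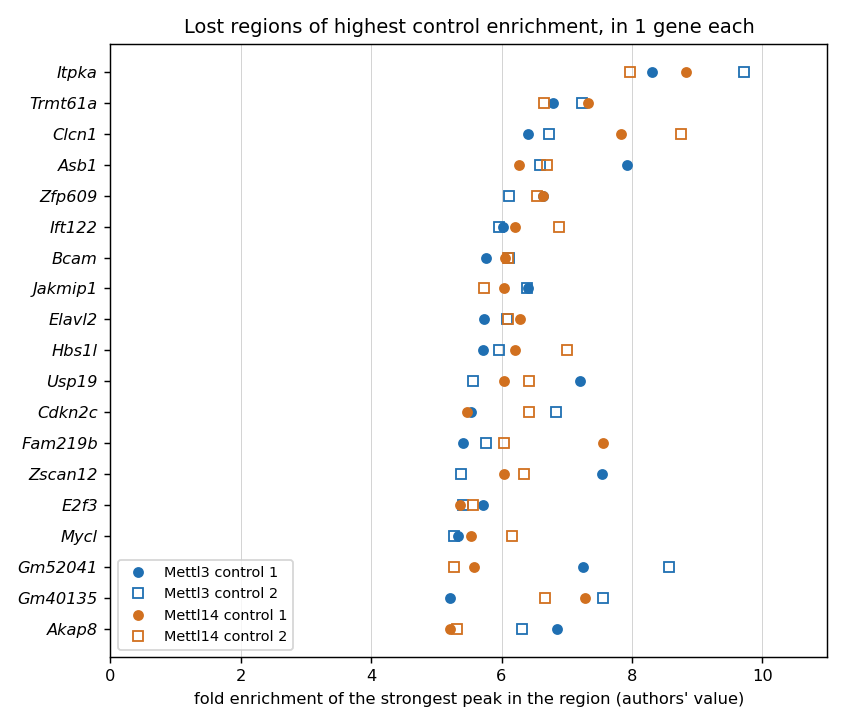
Fold enrichment (authors' value, horizontal axis) in each of the 4 chromatin RNA controls for 19 of the 20 lost regions of highest lowest-control fold that lie in 1 gene each, strongest at the top. Filled circles are first and open squares second replicates; the 4 knockout lists have no peak at any of them, by the definition. The 4 controls lie between 5.20 (Akap8) and 9.72 (Itpka).

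Of these strong regions, 4 lay antisense to their gene. At the cell cycle transcription factor gene E2f3 the lost region (chr13:29985323-29985861, plus strand) had control folds of 5.71, 5.41, 5.37 and 5.56 and lay at 0.804% of the gene body, beside the start. The others were in Akap8, a nuclear kinase anchor (6.86, 6.31, 5.20 and 5.31), and in the predicted genes Gm52041 (7.25, 8.57, 5.58 and 5.27) and Gm40135 (5.21, 7.56, 7.29 and 6.67). E2f3 and Akap8 had a peak on the sense strand at the same place in all 4 controls and all 4 knockouts. Gm52041 and Gm40135 had none on the sense strand in any chromatin RNA list.

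Gene strand was known for 317 of the lost regions in 1 gene, and 48 of them (15.1%) were antisense. The share was 4.33% among retained regions, 15.7% among regions lost in the Mettl3 knockouts only, 9.33% among those lost in the Mettl14 knockouts only and 5.19% among gained regions. It thus was about as high among regions lost in the Mettl3 knockouts only. Among the 48 antisense regions, 27 had a sense-strand peak at the same place in all 8 chromatin RNA lists. Another 19 had none in any chromatin RNA control. With the 10000 peaks of highest −log10 p in each list the antisense share of lost regions was 2.19%, whereas across the 4 bands of lowest control fold it ran from 9.88% to 20.7%. Where a sense peak lies at the same place, whether reads of the sense RNA were counted on the other strand was not tested.

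The lost regions gathered at the ends of genes. Over the 269 sense regions the summit lay at a median of 91.9% of the gene body, counted from the start, with quartiles of 67.5% and 97.1%. The median was 59.7% in regions found in all 8 lists, 76.4% in those lost in the Mettl3 knockouts only, 69.5% in those lost in the Mettl14 knockouts only and 34.1% in gained regions. The last 10% of the gene body held 141 of the 269 (52.4%), against 22.4% of retained, 34.1% and 33.8% of regions lost in 1 line, and 5.02% of gained regions. The first 10% held 4.46% of lost, 16.0% of retained and 26.0% of gained regions. Within 2 kb of the annotated 3′ end lay 123 of the 269 (45.7%), against 37.7% of those lost in the Mettl14 knockouts only, 27.2% of those lost in the Mettl3 knockouts only, 19.5% of retained and 1.83% of gained regions. Regions are not replicates, so these shares describe the libraries and carry no test.

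**Figure D3:**
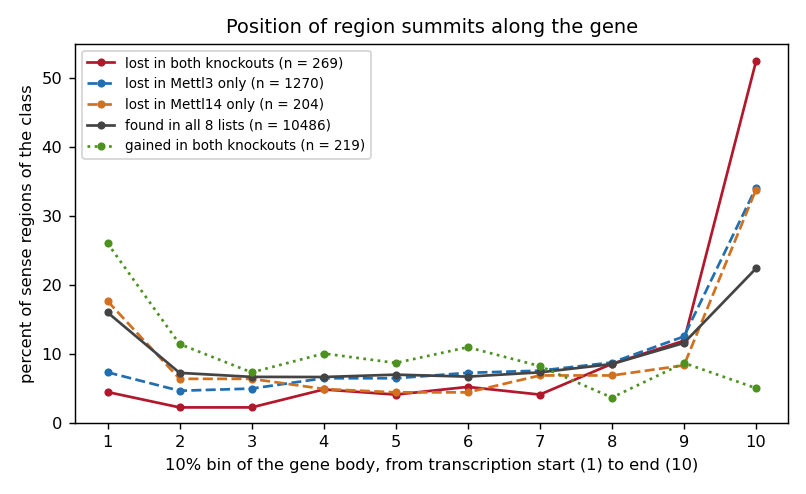
Percent of the sense regions of each class whose summit falls in each 10% of the gene body, from the start (1) to the end (10). The last 10% holds 52.4% of the regions lost in both knockouts (red), 22.4% of those found in all 8 lists (black) and 5.02% of the gained regions (green).

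Lost and retained regions stayed apart in this share among regions of like strength or width. When lost and retained regions were set side by side within 4 bands of lowest control fold, the last 10% held 48.4% to 56.2% of lost and 12.5% to 23.5% of retained regions. Within 4 bands of width it held 50.7% to 54.3% of lost and 6.75% to 29.1% of retained regions. Regions lost in 1 line came closer in some bands. In the band of 345 to 464 bp the share was 52.9% for regions lost in both, 46.2% for Mettl3 only and 41.5% for Mettl14 only. In the band of highest fold it was 48.4%, 33.2% and 41.7%. Over the 4 width bands it ran from 19.1% to 46.2% for Mettl3 only and from 19.5% to 41.5% for Mettl14 only. Over the 4 fold bands it ran from 32.8% to 40.7% and from 10.8% to 41.7%. With only the 10000 strongest peaks per list the shares were 44.8% of lost and 23.9% of retained regions. Examples at gene ends were Itpka, Jakmip1, the depalmitoylase gene Abhd17a (97.8%) and Klhl12, an adaptor of a ubiquitin ligase (96.2%). Examples away from them were Hbs1l, Asb1 (36.04%) and Mycl (13.4%).

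Of the 24 lost regions outside genes, 17 lay within 5 kb of one, and 10 of these were downstream of the gene on its own strand. The strand of the nearest gene was not known for all 24. These counts were not made for retained, gained or other regions outside genes, so they only describe the lost regions. The strongest, at chr2:127610268-127610569 on the plus strand, had control folds of 6.78, 7.77, 7.22 and 7.97 and lay 6282 bp downstream of Mrps5, which encodes a mitochondrial ribosomal protein and runs on the same strand. The next were at chrX:107350239-107350460 (5.26, 5.34, 4.92 and 6.04), 4346 bp from the predicted gene Gm5392, and at chr15:78895647-78895907 (4.88, 4.58, 5.54 and 4.77), 1062 bp downstream of Gga1, an adaptor of Golgi transport. None of these 3 had a peak in any mRNA list.

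Gene lists for embryonic stem cell biology held few lost regions, beside the 2.05% of all control regions. Pluripotency genes held 1 of 76 regions, in Tfcp2l1, a transcription factor of the naive state (4.65, 5.56, 5.46 and 5.14). It ran antisense to the gene, which kept 2 other regions in all 8 lists. The m6A machinery held 1 of 73, in Wtap, the adaptor of the methyltransferase complex itself. The Wtap region had control folds of 2.96, 3.46, 3.32 and 3.08 and was also missing from both Mettl3 knockouts in mRNA, where the controls had 3.84 and 4.20. All 4 Mettl14-line mRNA lists held it, at 4.54 and 3.32 in controls and 4.33 and 4.68 in knockouts.

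Polycomb genes, whose products place repressive histone marks, held 2 of 68 regions: Rybp (3.93, 3.81, 4.35 and 4.64) and Rnf2, the catalytic ubiquitin ligase (3.26, 4.03, 3.15 and 4.32). H3K4 methylation genes held 1 of 65, in Men1, a subunit of such methyltransferase complexes (5.71, 8.05, 4.36 and 3.56). Chromatin remodellers held 1 of 115, in Arid1b, where it ran antisense to the gene. No chromatin RNA list had a sense-strand peak at that place. LIF, FGF and Wnt signalling genes held 2 of 58, in the Wnt co-receptor gene Lrp6 and in Axin1, a scaffold of the complex that degrades beta-catenin. Germ layer and epiblast genes held 1 of 18, in a region shared by the Nodal antagonist gene Lefty1 and the predicted gene Gm39715 (4.66, 3.81, 5.99 and 4.64). The lists of H3K9 methylation and retroelement silencing (92 regions), DNA methylation (45), nuclear long noncoding RNA (33) and feeder fibroblast markers (9) held none. With 0 to 2 regions a list, no list stood out by its count.

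The mRNA libraries gave a readout that the selection had not used. Of the 455 lost regions, 285 overlapped an mRNA peak on the same strand in at least 1 of the 8 mRNA lists, 170 in none and 56 in all 8. Lists of both lines covered 181 regions (39.8%), Mettl14-line lists alone 97 (21.3%) and Mettl3-line lists alone 7 (1.54%). For retained regions the corresponding shares were 67.1%, 3.74% and 12.7%.

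In the Mettl3 line, an mRNA peak covered 31.9% and 31.6% of the lost regions in control cells, against 20.7% and 22.2% after knockout. The Mettl3 knockouts were thus lower than both controls. In the Mettl14 line control cells had 38.9% and 43.1%, and knockout cells had 55.8% and 52.7%, higher than both controls. The retained regions had 69.4% and 70.8% in Mettl3 controls, 68.7% and 69.9% in Mettl3 knockouts, 50.5% and 53.3% in Mettl14 controls, and 66.8% and 66.2% in Mettl14 knockouts. The rise in the Mettl14 line therefore appeared in retained regions too, beside mRNA lists that were longer in the knockouts (23380 and 22654 peaks) than in the controls (16537 and 17738).

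Averaged over the lines, the share of lost regions with an mRNA peak was 1.48 percentage points higher in knockouts (-10.3 points in the Mettl3 line, 13.3 in the Mettl14 line). A lower share was not detected by the exact one-sided permutation test within lines (p = 0.694, adjusted over 3 measures 0.75; smallest possible p 0.0278). Set against the retained regions of the same list, the difference was -5.43 points (-9.51 in the Mettl3 line, -1.34 in the Mettl14 line; exact permutation p = 0.0556, adjusted 0.167). The mean fold percentile of the mRNA peaks at lost regions, ranked within each list, differed by 1.06 points (5.68 and -3.55; exact permutation p = 0.75, adjusted 0.75). None of the 3 measures passed at 0.05 after adjustment. When each mRNA list was limited to its 15000 strongest peaks, the first measure turned to -3.35 points, with -3.08 in the Mettl3 line and -3.63 in the Mettl14 line (exact permutation p = 0.0278, the smallest possible, unadjusted). The difference against retained regions was then again -5.43 points, but with -0.537 in the Mettl3 line and -10.3 in the Mettl14 line (exact permutation p = 0.0556, unadjusted). Its larger part thus changed line with list length.

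**Figure D4:**
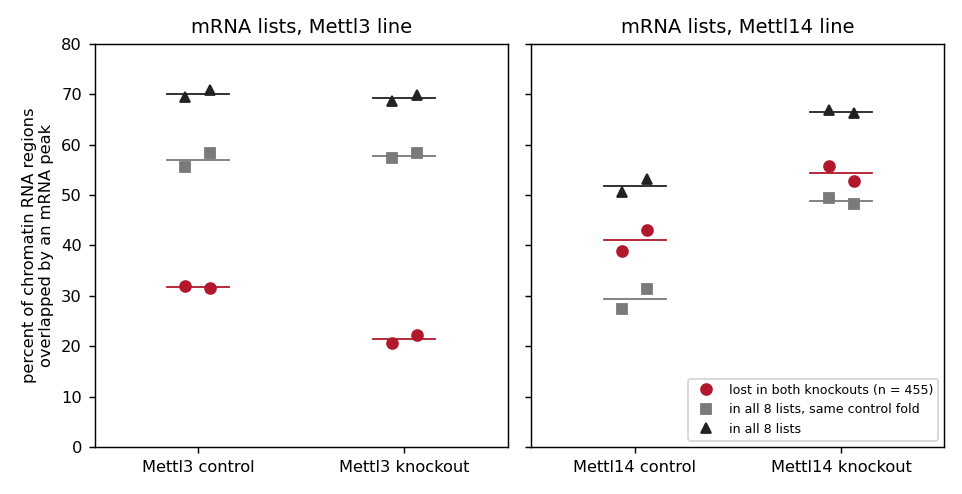
Percent of chromatin RNA regions overlapped by an mRNA peak on the same strand, in each mRNA library (points) with the mean of 2 libraries (lines), for the Mettl3 (left) and Mettl14 (right) lines. Red circles are the 455 lost regions, black triangles the regions found in all 8 chromatin RNA lists, and grey squares those of them whose lowest control fold lies in the interquartile range of the lost regions. Lost regions are lower in the Mettl3 knockouts and higher in the Mettl14 knockouts than in their controls.

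In the full mRNA lists, the difference in the Mettl3 line was seen along the gene. Among lost regions in the last 10% of the gene, 48.2% and 43.3% had an mRNA peak in the Mettl3 controls, against 30.5% and 31.9% after knockout. Those before the last 10% had 23.4% and 28.1% in control cells and 17.2% in both knockouts. Retained regions of like control fold (2.83 to 4.001, the interquartile range of the lost regions) had 55.6% and 58.4% in control and 57.3% and 58.3% in knockout cells. Retained regions in the last 10% of the gene went from 90.5% and 91.3% to 84.4% and 85.3%. Regions lost from chromatin RNA in the Mettl3 knockouts only went from 38.3% and 38.4% to 25.7% and 26.3%, so a lower mRNA share in the Mettl3 line was shared with both of these classes. In the Mettl14 line the retained regions of like control fold had 27.4% and 31.3% in control and 49.4% and 48.3% in knockout cells, below the lost regions of each library. With 2 libraries against 2, an exact permutation test within a line cannot go below p = 0.167.

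Region by region, 117 lost regions had a peak in both Mettl3 mRNA controls, and 31 of them (26.5%) had none in either Mettl3 mRNA knockout. Over all regions in 4 chromatin RNA controls this share was 7.01%, over retained regions of like control fold 6.56% and over regions lost in the Mettl3 knockouts only 22.4%. In the other direction, 3 of 76 (3.95%) were gained in Mettl3 mRNA, near the background of 3.72%. The following examples were chosen after their values were seen. Both lost regions of the predicted gene Gm13421 were missing from the Mettl3 mRNA knockouts, with control folds in mRNA of 3.495 and 3.51 at the stronger and 3.95 and 3.73 at the weaker. Rnf20, a ubiquitin ligase for histone H2B, had mRNA folds of 3.01 and 8.07 in Mettl3 control cells and no peak after knockout, and the decapping factor gene Edc3 had 2.03 and 3.03 and none.

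In the Mettl14 line, 158 lost regions had a peak in both mRNA controls, and 2 of them (1.27%; background 1.19%) had none in the knockouts. These were in Ribc1 (mRNA control folds of 5.30 and 2.50) and in the vesicle tethering gene Vps54 (1.94 and 1.89). In the other direction, 33 of 226 (14.6%) were gained in Mettl14 mRNA, against a background of 17.2%. Retained regions of like control fold had 3.72% lost and 32.9% gained in Mettl14 mRNA, both above the values of the lost regions. No lost region had a peak in all 4 mRNA controls and in no mRNA knockout (0 of 90; background 0.044%, 4 of 9101 regions). The 90 regions with all 4 mRNA controls included 56 that were found in all 8 mRNA lists.

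Altogether 19 genes held 2 lost regions each, so no smaller set of 5 could be ranked by number. In Abhd17a one lay at 97.8% and the other at 2.8% of the gene body, with control folds of 5.65, 6.44, 5.64 and 4.45 at the end and 5.84, 6.41, 3.76 and 3.87 at the start. In Zranb3, a DNA translocase of replication repair, the regions lay at 77.7% (5.05, 3.81, 3.70 and 3.75) and 96.2% (2.90, 5.69, 3.71 and 4.13). The first was present in mRNA of both Mettl3 controls (3.502 and 4.32), of neither Mettl3 knockout and of all 4 Mettl14-line lists. At the end of Abhd17a, mRNA peaks were found in both Mettl3 controls (3.68 and 4.10) and in the second Mettl14 knockout (4.52). At its start only the first Mettl14 knockout held an mRNA peak (3.05). The 2 regions of a gene therefore did not always share their mRNA pattern.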

How the data were processed

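Each immunoprecipitation library came with its own stranded list of peaks, as deposited. In it the authors' fold enrichment is a ratio over their caller's background, significance is deposited as −log10 of p and of q, and the deposited summit offset is counted in bases. The submitters' processing notes name mm10, CASAVA, Trimmomatic 0.38, HISAT2 2.1.0 and SAMtools 1.9; the peak caller is not given in the sources used here. Folds were used to describe and rank peaks.

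Regions were merged with Python 3.11.15, numpy 2.4.6 and pandas 2.3.3, and the rule and test were tested on simulated lists. Gene bodies came from a RefSeq table of GRCm38.p6 (49997 genes), and gene strand from the RefSeq promoter table for 27025 of them. Exons and introns were not used here. Gene and position are those of the summit of the control peak of highest −log10 p (for gained regions, the knockout peak). For mRNA, genotype was permuted within line (36 arrangements), with Benjamini-Hochberg adjustment over 3 measures. Labels shared replicate numbers only, and replicate 1 minus 2 differences of log2 fold in mRNA correlated at 0.0084 and 0.012 between control and knockout of the Mettl3 and Mettl14 lines, so numbers were not treated as pairs. Named genes were the 20 strongest lost regions in 1 gene by lowest control fold, the 3 strongest outside genes, members of 11 gene lists ranked in the top 200, genes with most members, and members lost in mRNA of both lines; 1 of the 20 is not reported here, and others are named as examples chosen after their values were seen. The members and lists were chosen with earlier results of these data known. Alternatives covered overlap, strand, threshold, list length, sidedness, replicate block and leaving out each library.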

Additional observations from a re-analysis of the deposited data

Results flagged for a closer look

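The knockout minus control difference in the share of lost regions with an mRNA peak differed between the lines by 23.6 percentage points (Mettl14 minus Mettl3): every Mettl3 knockout library was below its controls and every Mettl14 knockout library above. The exact two-sided permutation test of this difference gave p = 0.0556, the smallest it can give, and 0.0833 after adjustment over 3 measures. With the 15000 strongest mRNA peaks of each list the lines had -3.08 and -3.63 points, so the opposite directions were not kept at equal list length.

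The within-list fold percentile of mRNA peaks at lost regions moved oppositely, with a line difference of -9.23 points (Mettl14 minus Mettl3; 5.68 in the Mettl3 line and -3.55 in the Mettl14 line). Its exact two-sided permutation p was also 0.0556, adjusted 0.0833. With the 15000 strongest mRNA peaks per list the values were 0.419 and 5.13. Neither difference passed at 0.05.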

How the results depend on the processing

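The number of lost regions was within 1.5 times 455 in 12 of 15 alternatives. It was 188 with the 10000 strongest peaks per list, and leaving out 1 chromatin RNA library gave 531 to 757, by construction, since fewer lists had to meet the definition. The mRNA share difference of 1.48 points turned to -3.35 with the 15000 strongest mRNA peaks per list and to -3.19 (exact permutation p = 0.167) with the 10000 strongest chromatin RNA peaks; without 1 chromatin RNA library it ranged from -0.134 (second Mettl14 knockout) to 2.31, and without 1 mRNA library from 0.44 to 2.53. The fold percentile difference of 1.06 turned to -0.0327 with mRNA peaks of either strand and to -0.880 with the 10000 strongest. The causes were not tested.

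With the 15000 strongest mRNA peaks per list, the difference against retained regions was -0.537 points in the Mettl3 line and -10.3 in the Mettl14 line. Averaged over the lines (-5.43), this difference stayed negative in all 30 alternatives. It reached the smallest permutation p of 0.0278, unadjusted, in 11 of them: -6.05 with mRNA peaks of either strand, -6.63 with summits within 100 nt, -5.98 with strand ignored, -5.47 at −log10 q of 5 or more, -7.84 and -9.69 with the 30000 and 10000 strongest peaks, and, chosen after seeing the data, -8.66 against retained regions of the same control fold and -7.30 with lost and retained regions both of that fold. The others left out 1 chromatin RNA library (-6.97 to -4.19 over all 8), and leaving out 1 mRNA library gave -6.05 to -4.80. With a replicate block, which pairs equal replicate numbers of a line, the permutation p was 0.625 for the share (1.48), 0.125 for the difference against retained regions (-5.43) and 0.75 for the fold percentile (1.06), with 0.0625 the smallest possible. With 2 libraries a group and unknown read depth, a fold is known only as the authors' caller gave it.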
